A study of Mus musculus with 59 samples.

Results

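The 10 genes of the main alpha- and beta-tubulins followed here comprise 3 for alpha-tubulin (Tuba1a, Tuba1b and Tuba4a) and 7 for beta-tubulin (Tubb2a, Tubb2b, Tubb3, Tubb4a, Tubb4b, Tubb5 and Tubb6). They were named as a list of isotypes, with earlier results of these data known. They are 10 of the 51456 genes in the deposited table. All 10 were among the 16839 genes with a mean normalized count of at least 10 that were tested. Messenger RNA was measured in 59 libraries of mouse prefrontal cortex (strain C57BL/6J) taken on postnatal day 25. The labels divide the libraries by genotype at Chd8 (heterozygous for the allele Chd8-S62X, HT, or wild type, WT), by drug (vehicle, fluoxetine or lithium, taken in through maternal milk from day 3 to day 24) and by sex. Of the 12 groups, 11 held 5 libraries and the HT-labelled females given fluoxetine held 4. Both genotypes and sexes were given each drug by the same route, and the labels name no dam or litter. Nor do they say that each library came from a different mouse, so the p-values reflect only how much these samples vary. Lithium inhibits glycogen synthase kinase 3 and inositol monophosphatase, and fluoxetine blocks the reuptake of serotonin.

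Microtubules are polymers of paired alpha- and beta-tubulin, and neurons use them as the scaffold of axons and dendrites and as the tracks of kinesin and dynein motors. Mammals carry several genes, the isotypes, for each subunit. Their products differ mostly in the acidic tail that microtubule-associated proteins and modifying enzymes bind, and developing neurons use another mixture than mature neurons and glia. Cells also adjust tubulin messenger RNA to the amount of free tubulin: when free subunits are in excess, the factor TTC5 recognises the first residues of a nascent tubulin chain on the ribosome and the message is degraded.

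The starts of the coding sequences show what this recognition has in common across the family and where the isotypes part, since capitals mark the first 12 bases, which encode the recognised residues. The 30 bases from the start codon, read 5′ to 3′ from the GENCODE M21 transcripts (GRCm38), were as follows.
Tuba1a: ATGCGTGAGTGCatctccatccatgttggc
Tuba1b: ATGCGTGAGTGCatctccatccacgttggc
Tuba4a: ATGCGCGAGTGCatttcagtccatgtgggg
Tubb2a: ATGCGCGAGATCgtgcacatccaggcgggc
Tubb2b: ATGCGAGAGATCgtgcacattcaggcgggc
Tubb3: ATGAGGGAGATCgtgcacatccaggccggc
Tubb4a: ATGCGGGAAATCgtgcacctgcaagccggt
Tubb4b: ATGAGGGAGATCgtgcacctgcaggctggg
Tubb5: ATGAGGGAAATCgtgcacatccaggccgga
All 3 alpha genes have a second codon that starts with cg. Among the 6 beta genes shown, the second codon is agg in Tubb3, Tubb4b and Tubb5 and a codon starting with cg in Tubb2a, Tubb2b and Tubb4a, and both forms encode arginine. Tubb6, the remaining beta gene, is not shown, so whether it goes with this split is not given here. The split was seen after the values of the genes were known, and it is a description only.

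Near-identical pairs limit how reads can be assigned. The coding sequences of Tuba1a and Tuba1b are 98.3% identical and those of Tubb2a and Tubb2b 96.5%, whereas the other pairs of beta genes are 80.2 to 86.0% identical. The last 60 coding bases before the stop codon encode most of the acidic tail, and capitals mark the 3 bases that differ between Tubb2a and Tubb2b. Each of the 3 is the last base of its codon and leaves the encoded residue the same, so these bases mark no difference between the encoded tails.
Tubb2a: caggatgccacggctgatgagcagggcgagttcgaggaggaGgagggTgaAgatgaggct
Tubb2b: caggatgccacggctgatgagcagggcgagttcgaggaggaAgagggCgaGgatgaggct
The tails of the 4 genes called higher with lithium are shown for comparison, with no base marked.
Tuba4a: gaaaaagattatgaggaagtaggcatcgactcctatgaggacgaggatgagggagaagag
Tubb3: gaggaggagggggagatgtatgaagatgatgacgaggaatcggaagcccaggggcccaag
Tubb4b: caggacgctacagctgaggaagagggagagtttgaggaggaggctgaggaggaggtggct
Tubb5: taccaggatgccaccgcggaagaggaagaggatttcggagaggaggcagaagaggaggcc
Of all stretches of 31 bases in the transcript, the share found in no other gene was 23% for Tuba1a, 24.6% for Tuba1b, 43.6% for Tubb2a, 54.1% for Tubb2b and 35.4% for Tubb4b. It was 95.6 to 98.1% for the other 5, so their values depend least on how reads were divided. Tuba1a and Tuba1b share most with Tuba1c, which stood at 74.5 ± 20.3 normalized counts (SD, n = 59). Tubb4b shares most with the pseudogene Tubb4b-ps1, which reached at most 3.38 normalized counts in a library.

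The libraries differed in ways that bear on these genes. Deposited values summed to 30.3 to 33.7 M per library, with an estimated depth of 25.8 to 36.9 M reads. Chd8, the targeted gene, was higher in all 29 HT-labelled libraries (5115 to 6626 normalized counts) than in all 30 WT-labelled ones (2828 to 4229). The difference was 0.70 ± 0.03 on the log2 scale (SE; limma, adjusted p = 9.23e-27). Messages that carry a stop codon are often degraded, so a higher level in heterozygotes goes against what a stop allele would usually give. Whether the genotype labels are exchanged was not tested. Genotype is given as labelled throughout, and every genotype direction would turn if they were. Markers of cortical excitatory neurons (6 genes) were abundant in all libraries, and no marker of the 12 lists was at 0 in any library. The summed level of 5 olfactory bulb markers ran from 2651 to 21929 normalized counts over the 59 libraries. Their mean log2 level, in which each marker weighs the same, ran from 5.83 to 11.46, a wider span than that of the sum. The summed level of 8 markers of neuroblasts and immature neurons ran from 3979 to 23153. In 10 libraries the level of 10 striatum markers lay more than 5 robust SDs above the median, and more of these had lithium than vehicle. With lithium they were HT-labelled female 5, HT-labelled males 1 and 4, WT-labelled female 1 and WT-labelled male 2. With fluoxetine they were HT-labelled females 1 and 2 and WT-labelled female 1, and with vehicle HT-labelled female 3 and WT-labelled female 5. In such bulk samples, fewer cells of a type and less RNA per cell cannot be told apart.

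Per kilobase of transcript, the level of the isotypes spanned more than 2 orders of magnitude, with Tuba1a, the main alpha-tubulin of young neurons, at the top and Tubb6 at the bottom. Over the 59 libraries, Tuba1a stood at 26241 ± 1374 normalized counts per kilobase (SD). Tubb2a, a neuronal beta-tubulin, followed at 16088 ± 994 and Tuba1b, a widely expressed alpha-tubulin, at 11917 ± 756. The lowest library for Tuba1a lay above the highest for Tubb2a, and the lowest for Tubb2a above the highest for Tuba1b. Tubb4a, a beta-tubulin of neurons and myelinating oligodendrocytes, stood at 9889 ± 1072 and Tubb3, the neuron-specific isotype, at 7614 ± 447. Tubb5 was at 7002 ± 465, Tubb4b, which also serves cilia, at 6538 ± 573 and Tuba4a, an alpha-tubulin of mature neurons, at 6032 ± 854. Ranges over libraries overlapped between each neighbouring pair from Tuba1b down to Tubb2b. The order of Tubb5, Tubb4b and Tuba4a rests on gaps no larger than the SD of the latter, and that of Tuba4a also on its 2840-base transcript model. Tubb2b, the isotype of migrating neurons and radial glia, was lower at 3089 ± 647 and Tubb6, which is low in brain, was at 59.5 ± 36.7. Together the 3 alpha genes summed to 44190 ± 1790 and the 7 beta genes to 50280 ± 2451 per kilobase.

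Across libraries the isotypes varied to very different degrees. The coefficient of variation was 5.24% for Tuba1a, 5.87% for Tubb3 and 6.18% for Tubb2a. It was 14.2% for Tuba4a, 20.9% for Tubb2b and 61.7% for Tubb6. The highest library held 2.27 times the Tubb2b of the lowest and 8.18 times its Tubb6, against 1.27 times for Tuba1a.

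With lithium, 4 of the 10 isotypes rose and none fell: Tuba4a, Tubb3, Tubb4b and Tubb5, by 8.10 to 18.9%. Over all genes tested, 742 of 16839 passed the same test (4.41%), 471 of them higher (2.8%). The median difference of the 10 isotypes was 0.08 on the log2 scale, beside a median of about 0 (-0.00038) over all genes tested. Differences compare lithium with vehicle as the mean over the 4 combinations of genotype and sex, on log2(normalized count + 1), with limma and Benjamini-Hochberg adjustment over all genes tested and a threshold of 0.05. Errors of differences are SEs.

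Tuba4a, encoded at chr1:75214228-75219865, minus strand (GRCm38), showed the largest rise of the called isotypes. In WT-labelled females its normalized counts were 13800, 15294, 15608, 15610 and 17443 with vehicle and 17497, 18604, 18824, 19142 and 20251 with lithium. In WT-labelled males they were 13190, 17064, 17087, 17229 and 17412 with vehicle and 17413, 18809, 20815, 21066 and 21219 with lithium. All 5 lithium libraries lay above all 5 vehicle libraries in both strata, by as little as 17413 against 17412 in males. HT-labelled females had 12227, 13608, 16806, 17927 and 17929 with vehicle and 15794, 16997, 19101, 20121 and 22285 with lithium. HT-labelled males had 10997, 12816, 17257, 17512 and 19067 with vehicle and 13660, 16046, 16957, 18945 and 20723 with lithium. The HT-labelled groups were widely spread and overlapped, with 4 of 5 lithium libraries above the vehicle median in females and 2 of 5 in males. The difference over the 4 strata was 0.25 ± 0.06 (18.9% higher, limma, adjusted p = 0.011), with 16 of 20 lithium libraries above the vehicle median of their stratum.

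Tubb3, the beta-tubulin used as a marker of neurons, rose by less but with a smaller spread (gene at chr8:123411424-123422015, plus strand, GRCm38). In WT-labelled females its normalized counts were 12668, 12746, 13291, 13363 and 13428 with vehicle and 14299, 14755, 14986, 14992 and 16192 with lithium. In WT-labelled males they were 12914, 12961, 13367, 13941 and 14213 with vehicle and 14013, 14209, 14589, 14595 and 15356 with lithium. The WT-labelled female groups did not overlap, and the male groups did. HT-labelled females had 13678, 13969, 14189, 14209 and 14671 with vehicle and 13928, 14315, 14528, 15451 and 15686 with lithium. HT-labelled males had 13213, 14165, 14250, 14453 and 14603 with vehicle and 14262, 14605, 14615, 15417 and 15666 with lithium. Lithium libraries stood above the vehicle median of their stratum in 19 of 20 cases, and both HT-labelled strata overlapped. The difference was 0.11 ± 0.02 (8.1% higher, limma, adjusted p = 0.00112).

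Tubb5, a beta-tubulin of dividing cells and of neurons in development, had the smallest adjusted p of the family (gene at chr17:35833921-35838306, minus strand, GRCm38). In WT-labelled females its normalized counts were 17127, 17315, 17351, 17729 and 17902 with vehicle and 18281, 19133, 19553, 20531 and 21901 with lithium. In WT-labelled males they were 17347, 17450, 18113, 18232 and 18751 with vehicle and 19073, 19372, 19477, 19587 and 20856 with lithium. In both strata every lithium library exceeded every vehicle library. HT-labelled females had 16512, 17361, 18417, 18531 and 18643 with vehicle and 18618, 18745, 19031, 19171 and 20507 with lithium. HT-labelled males had 15853, 16427, 17616, 18452 and 19020 with vehicle and 16996, 18529, 19638, 19853 and 21087 with lithium. In HT-labelled females the highest vehicle library lay just above the lowest lithium library, and in HT-labelled males the ranges overlapped widely. The difference was 0.14 ± 0.03 (10.1% higher, limma, adjusted p = 0.000834), and 19 of 20 lithium libraries lay above the vehicle median of their stratum.

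Tubb4b, a beta-tubulin present in most tissues, was the fourth (gene at chr2:25222160-25224702, minus strand, GRCm38). In WT-labelled females its normalized counts were 9420, 9476, 9730, 10057 and 10567 with vehicle and 10666, 10831, 11295, 11704 and 11713 with lithium, without overlap. WT-labelled males had 9326, 10074, 10407, 10492 and 10791 with vehicle and 10287, 10567, 11123, 11404 and 11678 with lithium. Those groups overlapped, as did both HT-labelled strata. HT-labelled females had 8793, 8930, 10161, 10644 and 10967 with vehicle and 9935, 10308, 10458, 11291 and 11983 with lithium. HT-labelled males had 8119, 8461, 10638, 10776 and 11368 with vehicle and 9207, 10067, 10144, 10930 and 11819 with lithium, the widest spread of the 4 strata. The difference was 0.13 ± 0.04 (9.32% higher, limma, adjusted p = 0.0392). It did not pass without the filter on low values (adjusted p = 0.0702) or without the 10 libraries high in striatum markers (0.12 ± 0.04, adjusted p = 0.1345).

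**Figure D1:**
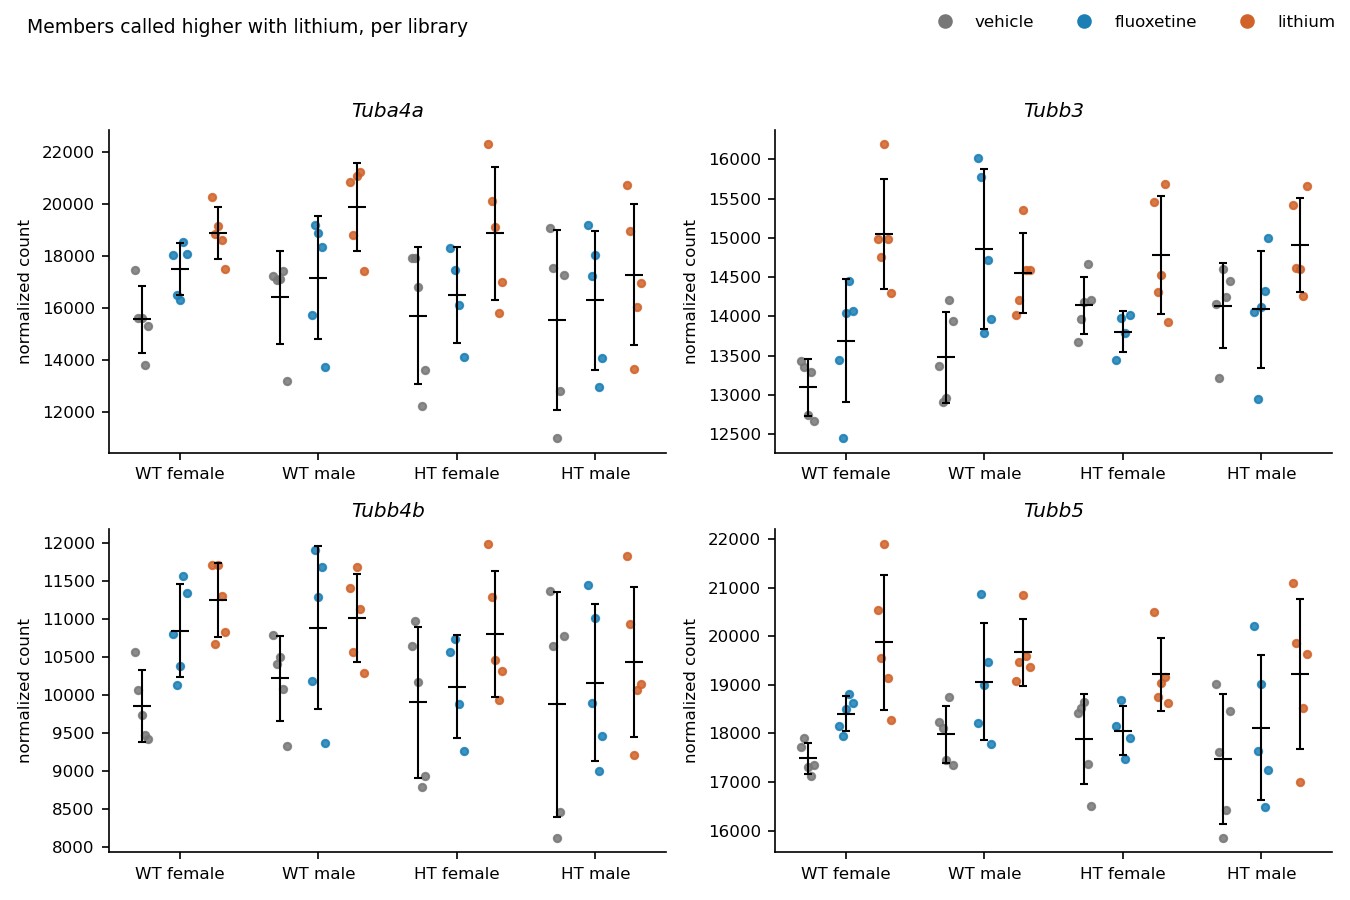
Normalized counts (y axis, not starting at 0) of Tuba4a, Tubb3, Tubb4b and Tubb5 in each library, by labelled genotype and sex (x axis) and drug (colour). Points are libraries and black marks are the mean ± SD of a group, and the mean with lithium is above that with vehicle in all 4 strata of each gene.

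The other 6 isotypes did not pass with lithium. Tuba1b came closest, at 0.08 ± 0.03 (limma, adjusted p = 0.0749). Its lowest, median and highest normalized counts were 17370, 20494 and 21870 over 20 vehicle libraries and 18868, 21357 and 23582 over 20 lithium libraries, with wide overlap. Tuba1a, the most abundant alpha-tubulin, ran at 43832, 47802 and 51610 with vehicle and 44530, 47653 and 52152 with lithium. Its difference of 0.02 ± 0.02 has a 95% interval of -0.03 to 0.07, which leaves out a rise of the size of those of Tubb3, Tubb4b and Tubb5. Tubb2a differed by 0.04 ± 0.02, with 23784, 25793 and 27138 in vehicle and 23566, 26074 and 30817 in lithium libraries. Tubb4a, with 17622, 21019 and 24275 and 18894, 22561 and 27188, differed by 0.08 ± 0.05 (95% interval -0.02 to 0.19). The isotypes with the widest spread were the 2 below 0. Tubb2b ran at 5357, 6221 and 10937 with vehicle and 5289, 6419 and 9753 with lithium, a difference of -0.03 ± 0.09. Tubb6 ran at 48, 100 and 292 and 39, 79 and 233, a difference of -0.37 ± 0.25 whose 95% interval was -0.86 to 0.13.

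Summed over the family, tubulin messenger RNA with lithium was 0.07 on the log2 scale above vehicle as the mean over strata, with 0.04 to 0.11 in the single strata and all 4 above 0. The 3 alpha genes were 0.07 and the 7 beta genes 0.08 above vehicle on that scale, per kilobase. These sums are descriptions and were not tested. Because reads of Tuba1a, Tuba1b and Tuba1c can be exchanged, their summed normalized counts are given too: 67528 ± 2172 (SD, n = 20) with vehicle and 69258 ± 2202 (SD, n = 20) with lithium. Tubb4b with its pseudogene gave the same difference as Tubb4b alone, 0.13.

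Of 84 markers of other cell types and regions, 2 passed with lithium (2.38%, beside 4.41% of all genes), both of them meningeal. All 5 olfactory bulb markers (median -0.27 on the log2 scale) and all 8 of neuroblasts and immature neurons (median -0.18) were below vehicle, and 4 of 6 excitatory neuron markers were above (median 0.08), though none of these 19 passed the test. Summed olfactory bulb markers spanned 2933 to 21929 normalized counts with vehicle and 2651 to 19111 with lithium. Summed excitatory neuron markers spanned 104827 to 178579 and 110190 to 165730. All 10 striatum markers were above vehicle with none called (median 0.19), and all 7 meningeal markers were below (median -0.36), of which Col3a1 and Lum passed. The mean log2 level of the 6 inhibitory neuron markers was 11.39 ± 0.08 with vehicle and 11.48 ± 0.06 with lithium (SD, n = 20 each), higher on average in all 4 strata. That of the 6 astrocyte markers was 12.26 ± 0.10 and 12.18 ± 0.09, lower on average in all 4. With the level of the excitatory neuron markers as a covariate, an alternative added after the data were seen, all 4 rises passed. Tuba4a was then 0.20 ± 0.02 (adjusted p = 6.985e-08) and Tubb3 0.12 ± 0.02 (adjusted p = 0.000151). Tubb4b was 0.10 ± 0.02 (adjusted p = 0.000104) and Tubb5 0.12 ± 0.02 (adjusted p = 1.34e-05). Tuba1b passed in that fit too, at 0.06 ± 0.01 (adjusted p = 0.00591). Without the covariate, Tuba4a, Tubb3, Tubb4b and Tubb5 stood at 0.25, 0.11, 0.13 and 0.14, and Tuba1b at 0.08. The covariate comes from the same libraries and could itself differ with lithium, so this fit does not settle the part of tissue composition. The part of the excitatory neuron, meningeal, inhibitory neuron and astrocyte markers in these differences was not tested.

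The promoters of 3 members are shown from RefSeq (GRCm38.p6). Tubb4b and Tubb2a have no base of a GENCODE exon of their own gene in the window, and Tubb5 has 5 at its end. Exons of other genes were not looked at. They are the 250 bases upstream of the start, read 5′ to 3′ on the strand of the gene. These 3 were kept because their windows held few or no exon bases of the same gene, and not for their response to lithium. The promoters of the other members are not shown, so members that rose are not compared here with members that did not. Capitals mark the CCAAT box, GGGCGG and TATAAA, each searched on both strands. Tubb4b is at chr2:25224703-25224952, Tubb5 at chr17:35838302-35838551 and Tubb2a at chr13:34078009-34078258, all on the minus strand.
Tubb4b: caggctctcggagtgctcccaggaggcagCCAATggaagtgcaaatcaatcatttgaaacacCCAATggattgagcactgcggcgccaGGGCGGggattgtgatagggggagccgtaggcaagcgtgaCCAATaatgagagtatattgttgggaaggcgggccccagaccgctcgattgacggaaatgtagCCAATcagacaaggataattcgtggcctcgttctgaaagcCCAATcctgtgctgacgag
Tubb5: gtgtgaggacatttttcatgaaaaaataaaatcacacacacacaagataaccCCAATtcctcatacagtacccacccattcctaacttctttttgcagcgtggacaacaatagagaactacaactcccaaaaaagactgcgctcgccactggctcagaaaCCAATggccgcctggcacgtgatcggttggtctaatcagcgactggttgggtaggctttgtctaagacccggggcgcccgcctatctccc
Tubb2a: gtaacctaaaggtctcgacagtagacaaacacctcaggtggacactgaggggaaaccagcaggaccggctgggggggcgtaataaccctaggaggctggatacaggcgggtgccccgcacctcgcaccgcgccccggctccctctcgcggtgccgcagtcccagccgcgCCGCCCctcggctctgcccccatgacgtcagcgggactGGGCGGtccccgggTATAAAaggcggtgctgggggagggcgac
Tubb4b holds 5 copies of CCAAT, a number that 0.213% of 32851 promoters reach, and Tubb5 holds 2, a number that 10.1% reach. Tubb2a holds none, where 33.8% of promoters hold at least 1, and has 2 copies of GGGCGG (16.7% of promoters hold 2 or more) and 1 TATAAA (12.4% hold at least 1). These matches are descriptions of letters in a window.

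By genotype, the rises with lithium were nominally larger in WT-labelled than in HT-labelled libraries, but no difference between them passed. In WT-labelled libraries alone, Tubb3 (0.15 ± 0.03, adjusted p = 0.00979) and Tubb5 (0.16 ± 0.04, adjusted p = 0.0468) passed in limma, where 0.214% of all genes did. In HT-labelled libraries none of the 10 passed, against 0.238% of all genes. Tuba4a was 0.28 ± 0.09 in WT-labelled and 0.22 ± 0.09 in HT-labelled libraries. Tubb4b was 0.15 ± 0.05 and 0.11 ± 0.05, Tubb5 in HT-labelled libraries 0.12 ± 0.04 and Tubb3 0.07 ± 0.03. The test of the difference itself called 0 of 16839 genes in limma (0%), with 386 at an unadjusted p under 0.05. All 10 isotypes had a smaller or more negative value in HT-labelled libraries, none of them at an unadjusted p under 0.05. Over all genes tested, 50.8% had a value above 0. The isotypes come from the same libraries and many vary together, so they are not 10 separate observations. The largest difference of the well measured isotypes was that of Tubb3, at -0.09 ± 0.04 (95% interval -0.17 to 0.00082).

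With fluoxetine none of the 10 isotypes passed, and 11 of 16839 genes did (0.0653%). The 20 vehicle libraries are the same as those set against lithium, so the comparisons share their controls. Of the isotypes, 2 had an unadjusted p under 0.05 in limma, namely Tuba1b at 0.06 ± 0.03 (adjusted p = 0.37) and Tubb5 at 0.06 ± 0.03 (adjusted p = 0.386). Over the 19 fluoxetine libraries, the lowest, median and highest normalized counts of Tubb5 were 16490, 18207 and 20872, against 15853, 17672 and 19020 with vehicle. For Tubb3 they were 12454, 14041 and 16019 with fluoxetine and 12668, 13810 and 14671 with vehicle, a difference of 0.04 ± 0.02. For Tuba4a they were 12947, 17447 and 19170 and 10997, 16935 and 19067, a difference of 0.10 ± 0.06 with a 95% interval of -0.03 to 0.22. All 3 drug groups overlapped in each of these genes. The remaining isotypes ran from -0.44 ± 0.25 for Tubb6 to 0.09 ± 0.05 for Tubb4a. In WT-labelled libraries alone (0.19% of genes called) and in HT-labelled ones (0%), no isotype passed.

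Set directly against fluoxetine, lithium gave higher Tubb3 (0.07 ± 0.02, limma, adjusted p = 0.0274) and Tubb5 (0.08 ± 0.03, adjusted p = 0.03645). These are 2 of 10 isotypes, where 8.88% of all genes passed. Tuba4a differed by 0.15 ± 0.06 (adjusted p = 0.1185) and Tubb4b by 0.05 ± 0.04 (adjusted p = 0.456), so the data do not separate the drugs on these 2 genes at the threshold used.

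**Figure D2:**
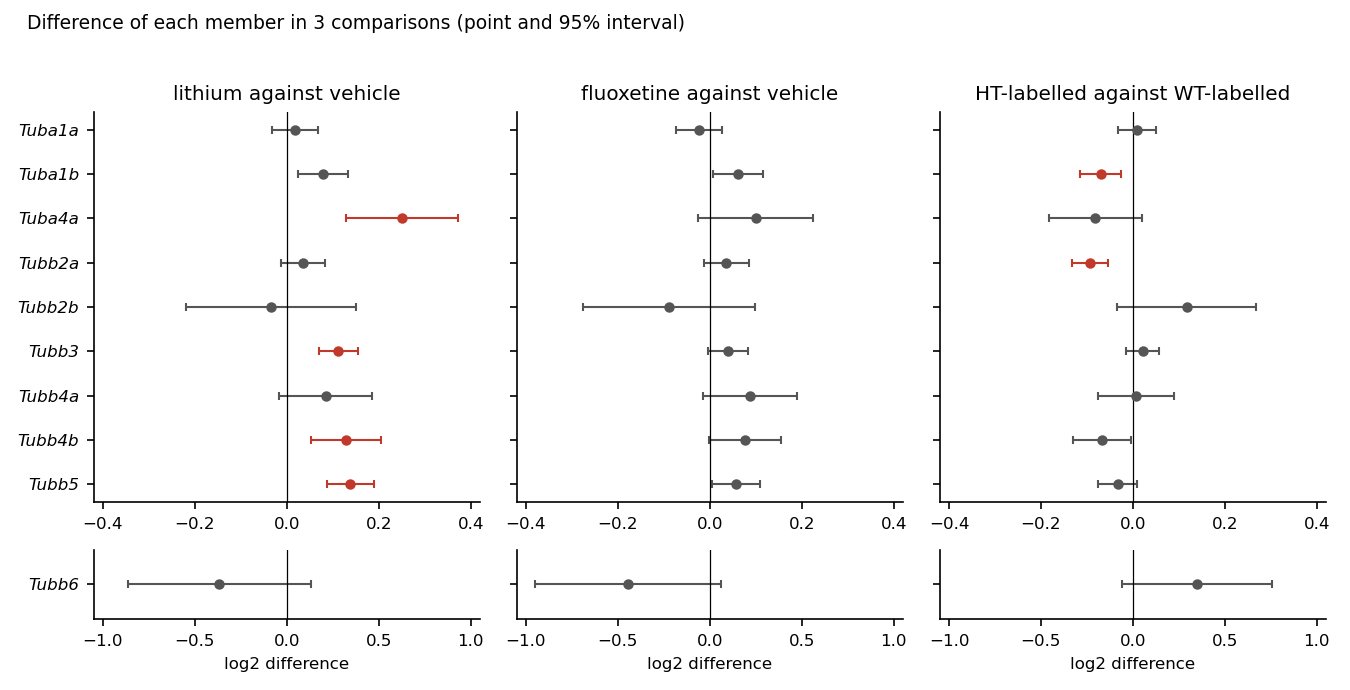
Differences on the log2 scale (x axis) of the 10 isotypes (y axis) for lithium and fluoxetine against vehicle and for HT-labelled against WT-labelled libraries, with 95% intervals and Tubb6 on a wider axis below. Isotypes past the threshold are red: Tuba4a, Tubb3, Tubb4b and Tubb5 on the side of lithium, none with fluoxetine, and Tuba1b and Tubb2a below 0 for HT-labelled libraries.

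Between genotypes, Tubb2a and Tuba1b were lower in HT-labelled libraries and no isotype was higher, in the direction drawn from labels under which Chd8 was the higher in HT. Over all genes tested, 1344 passed (7.98%), 726 of them lower (4.31%), beside 2 of 10 isotypes. The comparison is the mean over the 6 combinations of drug and sex.

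Tubb2a (gene at chr13:34074274-34078007, minus strand, GRCm38), the most abundant beta-tubulin here, was lower in all 6 strata. With vehicle, normalized counts were 24125, 25477, 26063, 26566 and 26732 in WT-labelled and 23961, 24414, 24430, 26192 and 26335 in HT-labelled females, and 25018, 25750, 25837, 26228 and 26732 in WT-labelled and 23784, 23975, 24010, 25941 and 27138 in HT-labelled males. With fluoxetine they were 24326, 26405, 27725, 27733 and 28680 in WT-labelled and 23688, 24154, 24735 and 25638 in HT-labelled females, and 25906, 27248, 28212, 29521 and 29934 in WT-labelled and 23357, 24683, 24714, 25207 and 25879 in HT-labelled males. Under fluoxetine every male of the HT label lay below every male of the WT label, while the other 5 strata overlapped. With lithium they were 25150, 25694, 26209, 26739 and 30817 in WT-labelled and 24066, 24603, 24720, 25350 and 26480 in HT-labelled females, and 25491, 26314, 26317, 26503 and 28407 in WT-labelled and 23566, 25545, 25940, 26537 and 27304 in HT-labelled males. The difference was -0.09 ± 0.02 (6.29% lower, limma, adjusted p = 0.00153), and 7 of 29 HT-labelled libraries lay above the WT-labelled median of their stratum. By drug, it was -0.05 ± 0.03 with vehicle, -0.07 ± 0.03 with lithium and -0.16 ± 0.03 with fluoxetine. Of these, the difference under fluoxetine passed in limma (adjusted p = 0.0125), where 0.849% of genes did. No other isotype passed within a drug, with 0.202% of genes called under vehicle and 0.267% under lithium.

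Tuba1b (gene at chr15:98931425-98934565, minus strand, GRCm38) fell by 0.07 on the log2 scale in HT-labelled libraries (-0.07 ± 0.02, 4.73% lower, limma, adjusted p = 0.038). Its lowest, median and highest normalized counts were 19040, 21410 and 22871 over 30 WT-labelled and 17370, 20223 and 23582 over 29 HT-labelled libraries. It was lower in 5 of 6 strata, with overlap in each, and 8 of 29 HT-labelled libraries exceeded the WT-labelled median of their stratum. The difference did not pass with excitatory neuron markers as a covariate (-0.04 ± 0.01, adjusted p = 0.0529) or without the filter on low values (adjusted p = 0.0623), whereas Tubb2a passed in both (with the covariate -0.08 ± 0.02, adjusted p = 0.002335). All 6 excitatory neuron markers were below WT in HT-labelled libraries (median -0.09), all 5 olfactory bulb markers (median 0.27) and all 10 myelin markers (median 0.17) above, and none passed. Summed excitatory neuron markers spanned 126328 to 177018 normalized counts in WT-labelled and 104827 to 178579 in HT-labelled libraries.

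**Figure D3:**
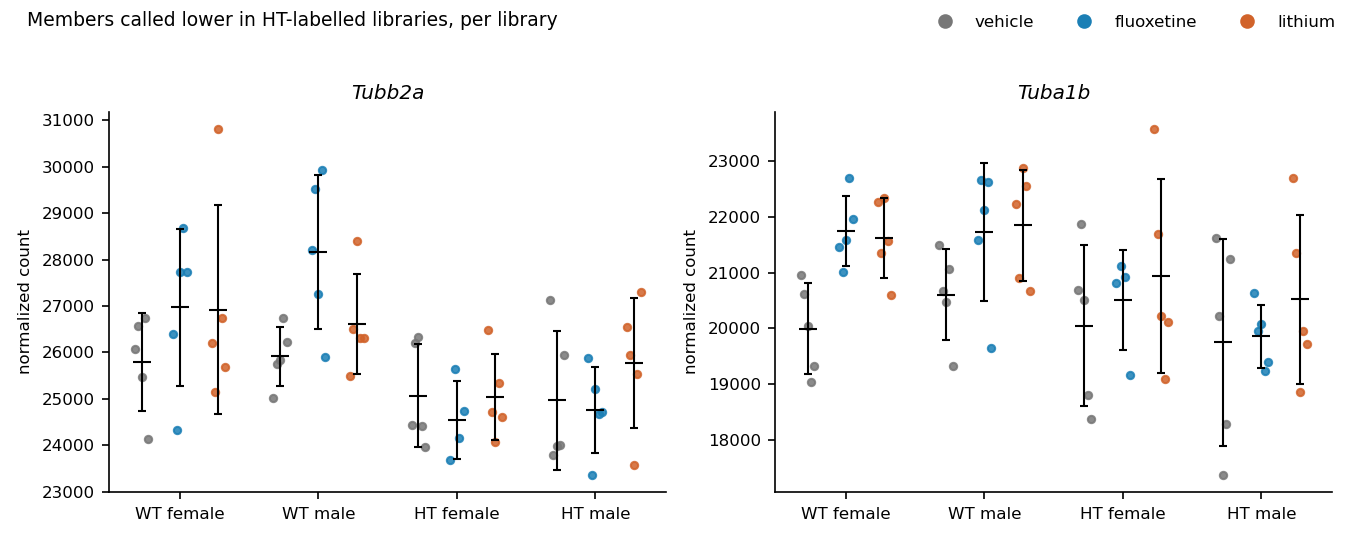
Normalized counts (y axis, not starting at 0) of Tubb2a and Tuba1b in each library, by labelled genotype and sex (x axis) and drug (colour). Points are libraries and black marks the mean ± SD of a group, and the HT-labelled means of Tubb2a lie below the WT-labelled ones of the same sex and drug in all 6 pairs.

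For both genes a near-copy shares much of the sequence. Summed normalized counts of Tubb2a and Tubb2b were 33134 ± 1915 (SD, n = 30) in WT-labelled and 32134 ± 1850 (SD, n = 29) in HT-labelled libraries, -0.05 on the log2 scale as the mean over strata and above 0 in 2 of 6. The ratio of Tubb2a to Tubb2b was 4.25 ± 0.601 and 3.73 ± 0.863, lower in HT-labelled libraries in 6 of 6 strata. The sum of Tuba1a, Tuba1b and Tuba1c differed by -0.01, and the ratio of Tuba1a to Tuba1b was 2.22 ± 0.14 in WT-labelled and 2.36 ± 0.25 in HT-labelled libraries, higher in 6 of 6 strata. None of these sums and ratios was tested.

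The other isotypes did not pass between genotypes. Tubb4b was -0.07 ± 0.03 (limma, adjusted p = 0.18), Tuba4a -0.08 ± 0.05 and Tubb5 -0.03 ± 0.02. Tubb2b was 0.12 ± 0.08 and higher on average in the HT-labelled group of all 6 strata, and its lowest, median and highest normalized counts were 5156, 6146 and 8411 in WT-labelled and 4810, 6450 and 10937 in HT-labelled libraries. Tubb6 was 0.35 ± 0.20, with 39, 79 and 198 and 36, 88 and 292. The HT-labelled range was the wider in both genes, on its upper side. Tuba1a, Tubb3 and Tubb4a differed by 0.01 to 0.02. With vehicle alone, Tubb3 was 0.09 ± 0.03 in HT-labelled libraries (unadjusted p = 0.00456, adjusted p = 0.246 in limma).

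Whether genotype changed the effect of fluoxetine was tested as well, and 0% of genes passed in limma (1040 of 16839 at an unadjusted p under 0.05). Among the isotypes, Tubb3 (-0.12 ± 0.04, unadjusted p = 0.007805) and Tubb2a (-0.11 ± 0.05, unadjusted p = 0.0265) were below an unadjusted 0.05 and failed adjustment in limma. Tubb3 ran at 0.10 ± 0.03 with fluoxetine in WT-labelled and -0.02 ± 0.03 in HT-labelled libraries. Between females and males none of the 10 isotypes passed, where 0.154% of genes did, and differences outside Tubb6 lay between -0.03 for Tubb4a and 0.01 for Tuba4a.

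Genes that fold, modify, bind or move along tubulin were read from lists of 7 kinds. With lithium, 1 of the 135 genes tested in them passed (0.741%), beside 4.41% of all genes. It was 1 of 6 other tubulins: Tubd1, which encodes the delta-tubulin of centrioles, rose (0.17 ± 0.05, limma, adjusted p = 0.0435). Its lowest, median and highest normalized counts were 131, 165 and 204 with vehicle and 167, 189 and 229 with lithium. Of the remaining lists none had a called gene: 23 genes of tubulin folding and autoregulation (median 0.00), 28 microtubule-associated and plus-end proteins (median 0.00), 13 destabilising and severing proteins (median 0.01), 21 modifying enzymes (median -0.00332), 26 kinesin, dynein and dynactin genes (median 0.04, 21 above 0) and 18 genes of gamma-tubulin nucleation (median -0.02). Closest were the severing factor Katnal1 (0.11 ± 0.03, adjusted p = 0.0532) and the plus-end protein Mapre3 (-0.06 ± 0.02, adjusted p = 0.059). The tubulin cofactor Tbcc was -0.09 ± 0.04, the glycylase Ttll3 0.22 ± 0.08, the dynein chain Dync1i2 0.05 ± 0.02 and Mzt2 of the gamma-tubulin complex -0.08 ± 0.03, none called. Ttc5, the autoregulation factor, stood at -0.00447 ± 0.03 (adjusted p = 0.951).

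With fluoxetine 0 of these 135 genes passed in limma, beside 0.0653% of all genes. The nearest were the chaperonin subunit Cct7 (0.08 ± 0.02) and Tpgs1 of the polyglutamylase complex (0.15 ± 0.03), both with an adjusted p of 0.058 in limma. Tubgcp4 of the gamma-tubulin ring complex was -0.16 ± 0.04 (adjusted p = 0.09645), and the stathmin Stmn4, the linker protein Clip2, the motor Kif5b and Tubg2 had an adjusted p of 0.273, 0.423, 0.302 and 0.444.

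Between genotypes, 13 of the 135 genes in these lists passed (9.63%), near the 7.98% of all genes tested. In HT-labelled libraries 11 of the 13 were lower, beside 726 of the 1344 genes called over all genes tested. Whether the lists differ from all genes in direction was not tested. Of 23 folding and autoregulation genes 3 were lower: Arl2 (-0.13 ± 0.03, limma, adjusted p = 0.002) and Tbcel (-0.07 ± 0.02, adjusted p = 0.00256), which act with the tubulin cofactors, and Ttc5 (-0.08 ± 0.02, adjusted p = 0.00777). Of 28 microtubule-associated and plus-end proteins 5 were lower, led by Mapre2 (-0.06 ± 0.01, adjusted p = 0.00473), an end-binding protein, and Map9 (-0.10 ± 0.03, adjusted p = 0.03025), followed by Clip1, Clasp2 and Dclk1 at -0.06, -0.05 and -0.08. Ttc5, Clip1, Clasp2 and Dclk1 were named after their values were seen. Stmn2, a stathmin of growing axons, was lower (-0.10 ± 0.03, adjusted p = 0.0283) and was the 1 called gene of 13 destabilising proteins. Atat1, the alpha-tubulin acetyltransferase, was higher (0.10 ± 0.03, adjusted p = 0.0323) and was the 1 called of 21 modifying enzymes. In the nucleation list of 18, Tpx2 was higher (0.30 ± 0.06, adjusted p = 0.00208) and the augmin subunit Haus2 lower (-0.08 ± 0.02, adjusted p = 0.0292). Tubd1 was lower (-0.13 ± 0.04, adjusted p = 0.0423), the opposite side from lithium, and no motor gene of 26 passed, with Dctn2 nearest (-0.04 ± 0.02).

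Within groups, the isotypes fell into blocs that moved in opposite directions from library to library. These are Pearson correlations of log2 values over 59 libraries after removal of the 12 group means; the libraries share a dissection and a depth each, and the values are descriptions. Tuba4a, Tubb4b and Tuba1b varied together, at 0.95 for Tuba4a with Tubb4b and 0.92 for Tuba1b with Tubb4b, and Tubb4a (0.83 with Tuba4a) and Tubb5 (0.82 with Tubb4b) went with them. Tubb2b and Tubb6 formed the other bloc (0.90), joined by Tuba1a (0.71 with Tubb2b). Between the blocs the values were negative, at -0.87 for Tuba4a with Tubb2b and -0.83 with Tubb6. Tuba1a was less opposed to the first bloc, from -0.52 with Tuba4a to -0.17 with Tubb5. Tubb3 and Tubb2a lay between, correlated with each other (0.66), with Tubb3 nearest to Tuba1a (0.71) and Tubb2a nearest to Tubb5 (0.71).

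**Figure D4:**
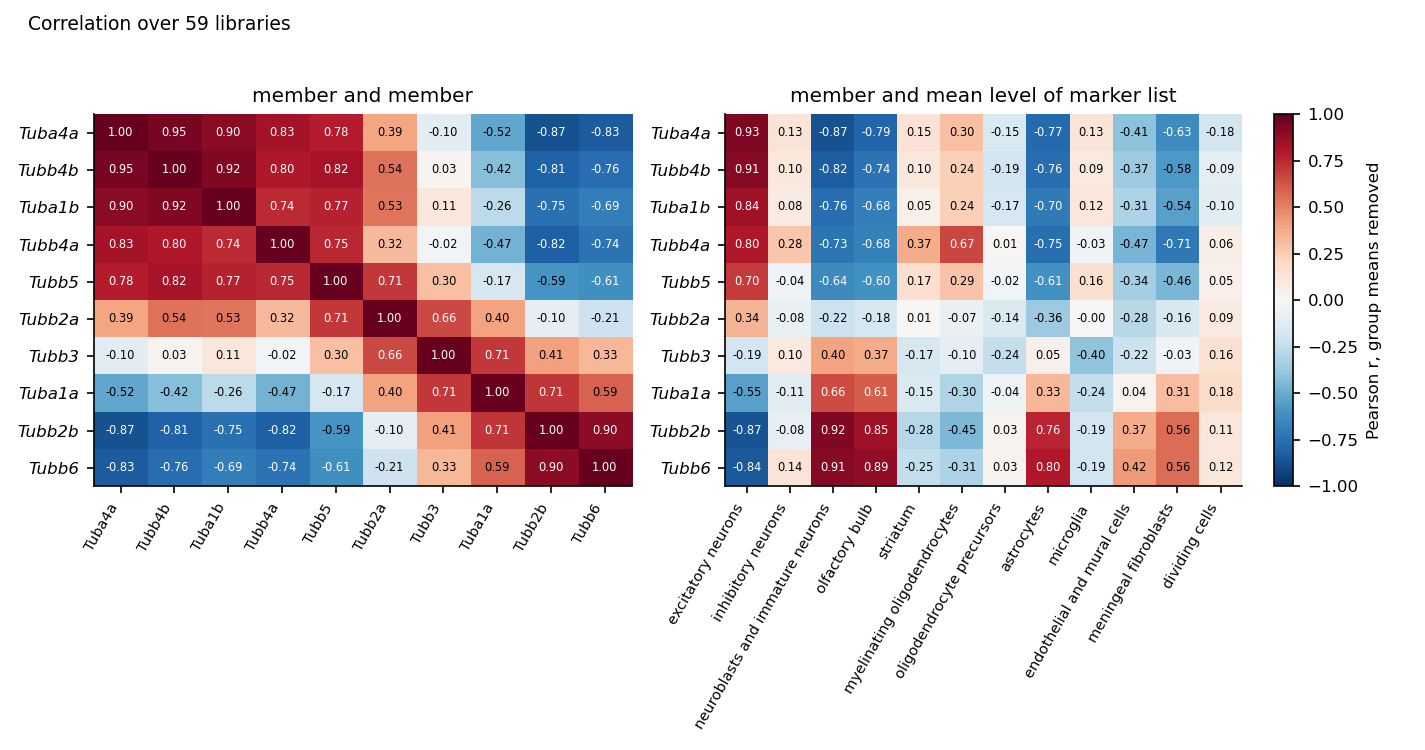
Pearson correlation (colour and number) over 59 libraries with group means removed, between isotypes (left) and between each isotype (rows) and the mean level of each marker list (columns, right). Tuba4a, Tubb4b, Tuba1b, Tubb4a and Tubb5 are positive with each other and with excitatory neuron markers, and Tubb2b and Tubb6 are negative with both.

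The blocs followed the markers of tissue composition. Against the mean level of the 6 excitatory neuron markers, Tuba4a stood at 0.93, Tubb4b at 0.91, Tuba1b at 0.84, Tubb4a at 0.80 and Tubb5 at 0.70. Tubb2b stood at -0.87 and Tubb6 at -0.84. Against neuroblast and immature neuron markers the signs were reversed, with 0.92 for Tubb2b, 0.91 for Tubb6 and -0.87 for Tuba4a. Olfactory bulb markers gave 0.85, 0.89 and -0.79, and astrocyte markers 0.76, 0.80 and -0.77. Tubb3 (-0.19) and Tubb2a (0.34) were the least tied to the excitatory neuron markers. Myelin markers went with Tubb4a (0.67) and less with the others, which ran from -0.45 for Tubb2b to 0.30 for Tuba4a.

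**Figure D5:**
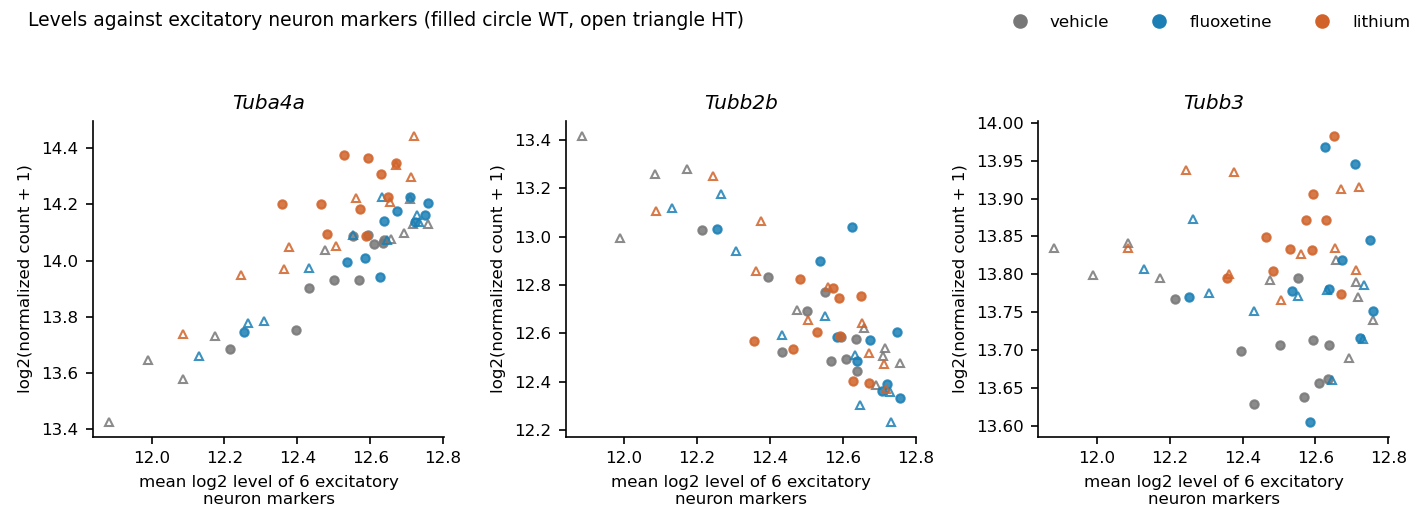
Log2 levels (y axes) of Tuba4a, Tubb2b and Tubb3 against the mean log2 level of 6 excitatory neuron markers (x axis) in each of 59 libraries, by drug (colour) and labelled genotype (symbol). Tuba4a climbs and Tubb2b drops along the axis, Tubb3 shows no steep slope, and lithium libraries lie towards the upper edge of the Tuba4a band.

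The genes outside the family whose levels went most closely with each isotype were found by the same correlation over 59 libraries among all genes tested. For Tuba4a they were Rangap1 (0.96) and Trim37 (0.95), for Tubb4b Tollip (0.92) and Trim37 (0.92), for Tuba1b Tollip (0.90) and Rangap1 (0.90) and for Tubb4a Grina (0.93) and Syt11 (0.93). Rangap1, Tollip and Trim37 each appear for 2 of these isotypes. For Tubb2b they were Cpne6 (0.95) and Meis2 (0.95) and for Tubb6 Sall3 (0.95) and Csdc2 (0.95), and for Tubb5 Kcnk1 (0.79) and Kif3c (0.78). Likeness was weaker for the remaining isotypes, with Zfp282 (0.76) and Qrfpr (0.76) for Tuba1a, Ppp2ca (0.67) and Idh3a (0.64) for Tubb2a and Ppm1g (0.66) and Zc4h2 (0.63) for Tubb3.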

How the data were processed

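RNA was prepared with a stranded mRNA kit, per the labels' protocols. The values are a normalized count signal that the authors deposited in 1 table. Salmon 0.11.2, DESeq2, R 3.6.0 and GRCm38 are named in the submitters' processing notes, while their roles and the annotation are not given in the sources used here. Low values are not whole multiples of 1 step, so no count test was run, and depth was estimated from the most frequent low value.

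Groups came from the labels alone. From log2(value + 1) of the 16839 genes with a mean of at least 10, 1 mean per group was fitted with limma 3.58.1 (R 4.3.3, statmod 1.5.0), with trend and robust shrinkage. Tests were two-sided, adjusted by Benjamini-Hochberg over all genes tested, and called at 0.05. Such differences understate changes of low genes, which matters for Tubb6. The fit was also run on simulated data with independent normal noise for each gene and library. Those data held no shared tissue composition or litter, so the run does not check the p-values against either. Levels per kilobase divide the values by the length of a GENCODE M21 transcript, and promoters were matched in RefSeq by symbol for the members shown.

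The members, the gene and marker lists and the rules were chosen with earlier results of these data known. The genes named were all 10 members, Chd8, up to 2 called genes per direction of each list with the smallest p (or the 1 nearest gene), and the 2 genes most like each member. Alternatives changed the shrinkage, the scaling (TMM factors), the filter on low values (none) or the pseudocount (0.5), kept only the groups in a contrast, added a replicate block or covariates for tissue composition, or left out 10 libraries high in striatum markers or each library in turn. The covariate of excitatory neuron markers was chosen after seeing the data.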

Additional observations from a re-analysis of the deposited data

Results flagged for a closer look

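In 8 of 132 checks of a gene in a group, 1 library lay far from the other 3 or 4, and chance flags about 1 check in 20. Tuba1a accounted for 3 of them. It stood at 42995 normalized counts in WT-labelled fluoxetine female 2 (others 47872 to 49191), at 52152 in WT-labelled lithium female 3 (others 46311 to 47341) and at 51878 in HT-labelled lithium male 5 (others 48673 to 49358). WT-labelled lithium female 3 also had the highest Tubb2a of its group, 30817 against 25150 to 26739. Tuba1b was 19172 in HT-labelled fluoxetine female 4, where the other 3 lay between 20821 and 21121. Tuba4a was 13190 in WT-labelled vehicle male 5, where the others lay between 17064 and 17412. Tubb5 was 20856 in WT-labelled lithium male 3, above 19073 to 19587 in the others. Chd8 was 5115 in HT-labelled vehicle female 4, below 5840 to 6128 in the others, and still above every WT-labelled library.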

How the results depend on the processing

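Tuba4a, Tubb3 and Tubb5 passed with lithium under all 11 alternatives and with each of 59 libraries left out, and Tubb2a passed for genotype under all 10 and with each library left out. Members called with lithium numbered 3 without the filter on low values and without the 10 libraries high in striatum markers (both losing Tubb4b), and 5 (adding Tuba1b) with the replicate block, the first principal component, the olfactory bulb and striatum markers or the excitatory neuron markers as covariates. Members called between genotypes numbered 1 without the filter and with the excitatory neuron covariate. With each library left out in turn they ranged from 1 to 2, and those called with lithium from 3 to 5. No alternative called a member with fluoxetine, between sexes or for a genotype difference of a drug effect. Among values that were not called, 31 of 640 under alternatives and 66 of 3540 with a library left out changed sign, and 0 called values did.

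The Tubb4b rise with lithium lost its call (adjusted p from 0.0528 to 0.0738 in limma) without any 1 of 17 libraries: HT lithium female 1 or 2, HT lithium male 1 or 2, HT vehicle female 4 or 5, HT vehicle male 3 or 4, WT lithium female 1 or 3, WT lithium male 1, 3 or 4, WT vehicle female 3, 4 or 5, or WT vehicle male 5. The Tuba1b genotype call was lost (0.0503 to 0.0659) without any 1 of 25: HT fluoxetine female 4, HT fluoxetine male 4 or 5, HT lithium female or male 3, 4 or 5, HT vehicle female 4 or 5, HT vehicle male 3 or 4, WT fluoxetine female 4, WT fluoxetine male 2, 3 or 4, WT lithium female 1 or 3, WT lithium male 1, 3 or 4, WT vehicle female 1 or 2, or WT vehicle male 1. Tuba1b passed with lithium (0.0405 to 0.0487) without HT lithium female 4, HT lithium male 3, HT vehicle female 2 or HT vehicle male 1. The causes were not tested.

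The labels do not say that a replicate number marks a shared animal, litter or day. The block stayed an alternative because pairs did not all correlate above 0.1. That rule is strict, and failing it does not show that same-numbered libraries share nothing. Same-numbered libraries of different groups still went together more often: 123 of 319 such pairs (38.6%, median 0.05) were above 0.1, against 307 of 1276 others (24.1%, median -0.02), and 19 of 59 libraries went best with their own number. The mean log2 olfactory bulb level of HT-labelled libraries was 5.96 to 7.09 in the 6 numbered 1 and 10.02 to 11.13 in the 6 numbered 4. HT-labelled libraries numbered 3 ran from 7.09 to 11.46. In WT-labelled libraries the ranges overlapped, at 6.25 to 10.44 for number 1 and 7.60 to 10.27 for number 4. With the replicate block, Tuba1b was 0.08 ± 0.02 with lithium (adjusted p = 0.0336 in limma), past the threshold it missed without the block. The groups of a contrast alone are all libraries for genotype and sex, so that alternative gives no second value there.

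Counts over all genes moved more than the members. Lithium called 742 genes, against 483 without the filter, 1472 with the first principal component, 1299 with olfactory bulb and striatum markers and 1543 with excitatory neuron markers. Genotype called 1344, against 877 without the filter. Fluoxetine called 11, against 7 without trend and robust shrinkage, 4 without the filter or with the groups alone, 41 with the replicate block, 43, 40, 19 and 35 with the first principal component, the olfactory bulb and striatum, the myelin and the excitatory neuron covariates, 1 without the 10 libraries, and 4 to 74 with a library left out. Sex called 26, against 73 with the first principal component and 54 with excitatory neuron markers, and the genotype difference for fluoxetine 0 against 1 with the former. The median difference over all genes was at most 0.0052 in every contrast with TMM factors. Tubb6 was the lowest of the 10 isotypes, at 35.7 to 292 normalized counts, so depth bears on it more than on the other isotypes.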

Other observations

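Other tubulin genes were low in these libraries. Tuba8 ran from 180.1 to 709 normalized counts over 59 libraries, Tuba1c from 37.3 to 156 and Tube1, for the epsilon-tubulin of centrioles, from 53.0 to 135. The gamma-tubulins Tubg1 and Tubg2, which nucleate microtubules, stood higher, at 1091 ± 64.2 and 1317 ± 111 normalized counts (SD, n = 59). Tuba3a, Tuba3b, Tubal3 and Tubb1 were below the minimum for testing, and Tubb1, the beta-tubulin of platelets, reached at most 4.72 normalized counts in a library.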
